A study of Mus musculus with 72 samples.

Results

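Motor genes of the kinesin and dynein families were described in fractionated mouse embryonic stem cells. They were taken as protein-coding genes whose symbols begin with Kif and a digit, Kifc, Dync or Dynl and whose exons held on average at least 400 sequenced T positions in whole-cell libraries. Of 59 genes with such a symbol, 50 met this minimum, out of 14673 genes that met it in the series. They were 13 mitotic kinesins, 14 transport kinesins, 8 other kinesins, 4 subunits of cytoplasmic dynein 1, 2 of dynein 2, 8 dynein light chains and Kif1bp. The last codes for a kinesin-binding protein that is no motor itself. The members nearest to the minimum were Kif9, with a mean of 596 T positions, and Kif1a, with 1352. Just outside it were Kif17 with 243 and Kif19a with 242, and Kif27, Kif26b, Dync1i1, Kif6, Dynlrb2, Kif12 and Kif2b were also below.

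Kinesins and dyneins burn ATP to walk along microtubules. Most kinesins move cargo toward the growing ends of microtubules, in the direction of the cell periphery, whereas cytoplasmic dynein 1 is the main motor in the opposite direction. Mitotic kinesins build the spindle, move chromosomes and close the cell at division, and stem cells divide often.

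The cells were E14TG2a, a mouse embryonic stem cell line, grown in 2i + LIF medium, which holds them in an undifferentiated state. All cultures received 4sU, a uridine analog that enters RNA made during labeling, and no unlabeled culture was analysed here. By the labels it was given at 500 µM for 15, 20, 30 and 40 min and at 100 µM for 60 and 120 min. The methods of the study name the higher dose for some 60 min cultures, so doses were not compared. Each culture was split by detergents into cytosol, a membrane fraction and nucleus, and part of it was kept as whole cells. The labeling times were 15, 20 and 30 min in replicates 1 and 2, then 20, 40, 60 and 120 min in replicates 3 and 4, and only the 2 longest in replicates 5 and 6. Replicate pair and labeling time are therefore partly confounded.

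The 72 libraries had 13185351 to 52975732 reads on genes. The methods of the study leave out cultures labeled for over 60 min at the higher dose, without naming replicates. The 8 libraries of 120 min from replicates 3 and 4 were taken to be these, against the dose in their labels, since their conversion rates were 8.83% to 12.2%, against 3.26% to 3.96% for 120 min in replicates 5 and 6. Leaving them out left 16 libraries per fraction from 16 cultures. The stem cell markers summed to 2732 to 5825 CPM (read counts scaled to library size) per kb of exon (CPM/kb) in whole cells and fibroblast markers to 0.554 to 3.70. Primitive endoderm markers summed to 65.1 to 99.9, mainly Sparc, and neural markers to 12.6 to 40.3, mainly Tubb3. All 3 nuclear marker RNAs were higher in the nucleus than in the cytosol, by log2 values of 1.29 to 5.43. So were all 4 marker RNAs of the membrane fraction, by 1.62 to 3.28, and the part of such RNA in the nuclear values below was not tested. The pairs of replicates stood apart: the median log2 ratio of nucleus to cytosol over all genes was 0.43 in replicates 3 and 4, but 0.01 in replicates 1 and 2 and also 0.01 in replicates 5 and 6. Within-pair values are given for this reason. Libraries are scaled to the same total, so a ratio between fractions is one of concentration in the RNA pool and not of molecules per cell.

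Levels of the members in whole cells spanned a wide range, with mitotic kinesins well above most transport kinesins. The highest value per kb of annotated exon was that of Kifc1, a kinesin that moves toward the spindle poles and bundles spindle microtubules. It had 71.7 ± 10.2 CPM/kb (SD, n = 16 libraries). Dynll2, a light chain shared by dynein and myosin V, followed at 58.0 ± 19.1 CPM/kb. The ranges of these genes overlapped, from 55.8 to 94.6 for Kifc1 and from 30.7 to 84.0 for Dynll2. Kif20a, needed for cytokinesis, reached 47.4 ± 10.97 CPM/kb. Next came the light chains Dynlrb1 with 39.3 ± 16.1 and Dynll1 with 38.7 ± 7.29, and then Dync1h1, the heavy chain that holds the motor domain of cytoplasmic dynein 1, with 32.9 ± 13.5 CPM/kb. These 3 neighbours lay within their spread of each other. The length used is that of all annotated exons of a gene together. For Dynll1 they cover the whole gene of 3.89 kb, so its value may be too low. Its rank, also against Kifc1, is therefore uncertain. The median of the light chains below is uncertain for another reason. The class includes the Dynlt1 copies, which had 153 to 676 T positions per counted read. Kif22, a chromosome arm motor, had 30.8 ± 7.31 CPM/kb. The most abundant transport kinesin was Kif5b, the ubiquitous heavy chain of conventional kinesin, with 27.4 ± 4.95 CPM/kb. Kif2c, a depolymerase of microtubules at centromeres, had 25.7 ± 4.93 CPM/kb and Kif11, which slides spindle poles apart, 20.9 ± 4.64. Kif4 had 13.4 ± 1.83 and Kif23, a subunit of the complex that bundles the central spindle, 12.7 ± 2.20 CPM/kb. At the lower end were Kif1a with 0.283 ± 0.204, Kif9 with 0.252 ± 0.0695 and Kif28 with 0.115 ± 0.0737 CPM/kb. The level of Kif28 is uncertain, since it had 199 T positions per counted read, against 18.9 to 39.2 in the members other than Kif28 and the Dynlt1 copies. The median level in whole cells was 20.3 CPM/kb for the mitotic kinesins, 15.9 for dynein 1, 13.9 for light chains, 2.47 for the transport kinesins and 0.942 for the other kinesins. These values come from growing cultures, in which fewer cells with an RNA and less of it per cell cannot be told apart.

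Promoters of the mitotic kinesins shared a sequence that the choice of members did not use. The motif TTTGAA is known as the cell cycle genes homology region, a promoter element of genes expressed late in the cell cycle. It was searched on both strands (TTCAAA on the strand of the gene where it lies on the other one) in windows from 250 bases before to 50 bases after annotated starts of RefSeq, build GRCm38.p6. Of the 50 members, 36 had a window. Not matched were Kif5a, Dync2li1, Kif1bp, Dynll2, Kif28, Kifc3, Dynlt1a, Kif20a, Kif21b, Dynlt1b, Kif5b, Dync1li2, Kifc2 and Kif13b. TTTGAA was present in 11 of 12 mitotic kinesins (91.7%), all but Kif18a, against 20.2% of the 27025 genes with a window. Among the other matched members it was present in Kif1a, 1 of 9 transport kinesins (11.1%), and in none of the remaining kinesins, dynein subunits and light chains with a window. CCAAT, searched in the same way, was in 8 of 12 mitotic kinesins (66.7%), in 3 of 5 light chains (60.0%), in 3 of 9 transport kinesins, in 1 of 6 other kinesins and in Dync2h1, against 41.1% of genes. The same 8 mitotic kinesins held both motifs, against 7.97% of genes. A match is a description of the letters and was not tested as a binding site. The windows of 30 bases are shown on the strand of the gene, with the motif in capitals, for mitotic kinesins of different functions and for Kif1a as the transport kinesin that also holds it.
Kif11 (chr19:37376351-37376380, plus strand): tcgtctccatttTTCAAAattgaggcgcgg
Kif23 (chr9:61946780-61946809, minus strand): ctgattggcctgTTTGAAatgcgccgggcg
Kif22 (chr7:127042420-127042449, minus strand): gggccccggtaaTTCAAAagagagaagcgg
Kif15 (chr9:122951050-122951079, plus strand): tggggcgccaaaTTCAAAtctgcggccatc
Kif4 (chrX:100626072-100626101, plus strand): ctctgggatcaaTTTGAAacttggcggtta
Kif2c (chr4:117178858-117178887, minus strand): ccaggctgctctTTCAAAcctgagtaatgc
Kif18b (chr11:102925104-102925133, minus strand): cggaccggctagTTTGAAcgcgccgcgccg
Kifc1 (chr17:33890615-33890644, minus strand): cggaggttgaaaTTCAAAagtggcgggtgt
Kifc5b (chr17:26917108-26917137, plus strand): cggaggttgaaaTTCAAAagtgactggtgt
Kif1a (chr1:93082507-93082536, minus strand): tttgacagcctcTTTGAAcattgctcctaa
The windows of Kifc1 and Kifc5b, near-identical copies on chromosome 17, share their first letters and the motif. Positions are counted in bases from the annotated start to the first letter of the motif, with negative ones before the start. The motif shown lay at -19 in Kif11 and Kif15, at -17 in Kif22 and at -103 in Kif2c. It lay at 2 in Kifc1, 3 in Kif23, 4 in Kif18b, 20 in Kif4 and 30 in Kifc5b. Where a window held the motif more than once, the site nearest to the start is shown. Kif15 held a further site at -234 and Kif22 one at -215. Of the mitotic kinesins not shown, Kif14 held its single site at -228 and Kif20b sites at 8 and 14.

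The first comparison asked how the RNA of the motors is spread between nucleus and cytosol. Dync1h1 and Kifc1 stood far above all other abundant members in the nucleus, several mitotic kinesins were modestly higher there, and the small light chains Dynlrb1, Dynll1 and Dynll2 were lower. Of 50 members, 19 were higher in the nucleus and 7 lower by edgeR's quasi-likelihood test, with calls at adjusted p below 0.05 and log2 ratios beyond 0.5 in size. Of all 16093 genes tested, 42.5% were higher and 21.2% lower, 63.7% in all, so that the counts of members were not far from the shares of all genes. The median log2 ratio of the members was 0.31, near that of all genes, 0.29. By class, 8 of 13 mitotic kinesins were higher and none lower, 5 of 14 transport kinesins higher and 1 lower, 4 of 8 other kinesins higher, and 4 of 8 light chains lower and none higher.

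Dync1h1 had 664, 1032 and 1464 CPM in the nucleus (lowest, median and highest of 16 libraries) and 47.1, 169 and 231 CPM in the cytosol. The groups did not overlap, and the nucleus was higher in 16 of 16 cultures. Its log2 ratio was 3.00 ± 0.20 (SE, edgeR, adjusted p = 5.26e-21). Within pairs of replicates it was 2.03, 4.42 and 2.41, the highest in replicates 3 and 4. Kifc1 had 359, 549 and 1012 CPM in the nucleus and 61.3, 100.2 and 117 CPM in the cytosol, again without overlap. Its log2 ratio was 2.87 ± 0.12 (edgeR, adjusted p = 6.02e-32), with 1.94, 3.68 and 2.31 within pairs. Here and in the other comparisons of fractions by read counts, the SE and p-value treat the 16 libraries per fraction as independent. They do not measure the spread between pairs, which in Dync1h1 and Kifc1 was wider than the SE. The near copy Kifc5b, which can exchange reads with Kifc1, had 102, 141 and 254 CPM against 24.0, 42.5 and 48.1 CPM. Its log2 ratio was 2.21 and its groups did not overlap either, though the values of the copies are not independent.

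The other mitotic kinesins differed far less between the fractions. Kif4, a chromosome-bound motor, had 85.6, 98.4 and 136 CPM in the nucleus and 61.6, 66.6 and 72.5 CPM in the cytosol. These groups did not overlap, with a log2 ratio of 0.76. The ratios were 0.70 for Kif23, 0.69 for Kif14, 0.62 for Kif20b, 0.58 for Kif15 and 0.54 for Kif2c, and the groups of all 5 overlapped. Kif22 with 0.35, Kif18b with 0.32, Kif18a with 0.12, Kif11 with -0.02 and Kif20a with -0.09 were not called. Kif11 had 121, 149 and 194 CPM in the nucleus and 109.6, 135 and 285 CPM in the cytosol, an almost complete overlap.

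Among transport kinesins, Kifc2 was higher in the nucleus by a log2 ratio of 2.80, with 8.23, 13.4 and 26.5 CPM against 0.0584, 2.53 and 4.84 CPM and no overlap. Kif5a, a neuronal form of conventional kinesin, had a ratio of 1.35, with 14.6, 23.0 and 47.8 CPM against 2.34, 11.4 and 21.6 CPM. The overlap was small, and the nucleus was higher in 16 of 16 cultures. Kifc3 with 0.65, Kif13b with 0.62 and Kif1b, which carries mitochondria and synaptic vesicle precursors, with 0.51 were also higher. Their within-pair values were 1.54, 1.57 and 0.90 in replicates 3 and 4 but -0.18, -0.04 and 0.06 in replicates 1 and 2, so that the higher values lay mostly in 1 pair. Kif16b, an endosome motor, was lower in the nucleus, with -0.55, and in 16 of 16 cultures. Kif5b with -0.46 and Kif1c, Kif3a and Kif13a with -0.06, 0.40 and 0.24 did not pass. Of the other kinesins, Kif28 with 1.49, Kif7 with 0.74, Kif26a with 0.67 and Kif24 with 0.63 were higher. Within pairs Kif26a had -0.43, 1.74 and 0.25 and Kif7 0.02, 1.71 and 0.17, so these values too lay mostly in replicates 3 and 4, and that of Kif26a changed sign. Kif28 had at most 1.35 CPM in any nuclear or cytosolic library and was not tested within replicates 5 and 6. Kif2a had -0.29 and Kif21a 0.10.

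The subunits of the dynein motors did not share the pattern of their heavy chains. Dync1i2, an intermediate chain that links the motor to dynactin, was lower in the nucleus, with a log2 ratio of -0.52, and with the culture as a block the ratio was -0.46, short of the limit. The light intermediate chains Dync1li1, with -0.40, and Dync1li2, with 0.31, were not called. Dync2h1, the heavy chain of the dynein that works in cilia, was higher by 1.40 and its light intermediate chain Dync2li1 lower, with -1.09. Dync2h1 had 10.4, 18.7 and 33.2 CPM in the nucleus and 6.19, 7.67 and 10.9 CPM in the cytosol, and Dync2li1 3.28, 4.59 and 8.74 CPM against 7.90, 12.8 and 20.1 CPM. The fractions overlapped slightly in each gene, and both genes kept their direction in 16 of 16 cultures.

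The light chains were the class with the lowest ratios. Dynlrb1 had 9.75, 20.4 and 36.6 CPM in the nucleus and 58.9, 69.1 and 123 CPM in the cytosol, with a log2 ratio of -1.75 ± 0.16 (edgeR, adjusted p = 2.77e-15). Dynll1 had 60.3, 94.4 and 136 CPM against 226, 256 and 430 CPM, and a log2 ratio of -1.31. Dynll2 had 64.5, 105 and 168 CPM against 242, 289.7 and 328 CPM, and a log2 ratio of -1.23. None of the 3 overlapped between fractions, and each was lower in the nucleus in every pair of replicates. Dynlt1a was lower, with -0.64. The Dynlt1 copies a, b, c and f share reads, so their values are uncertain. Dynlt3 was the only light chain with a higher value in the nucleus, 0.48, not called without the block and called with it at 0.55.

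**Figure D1:**
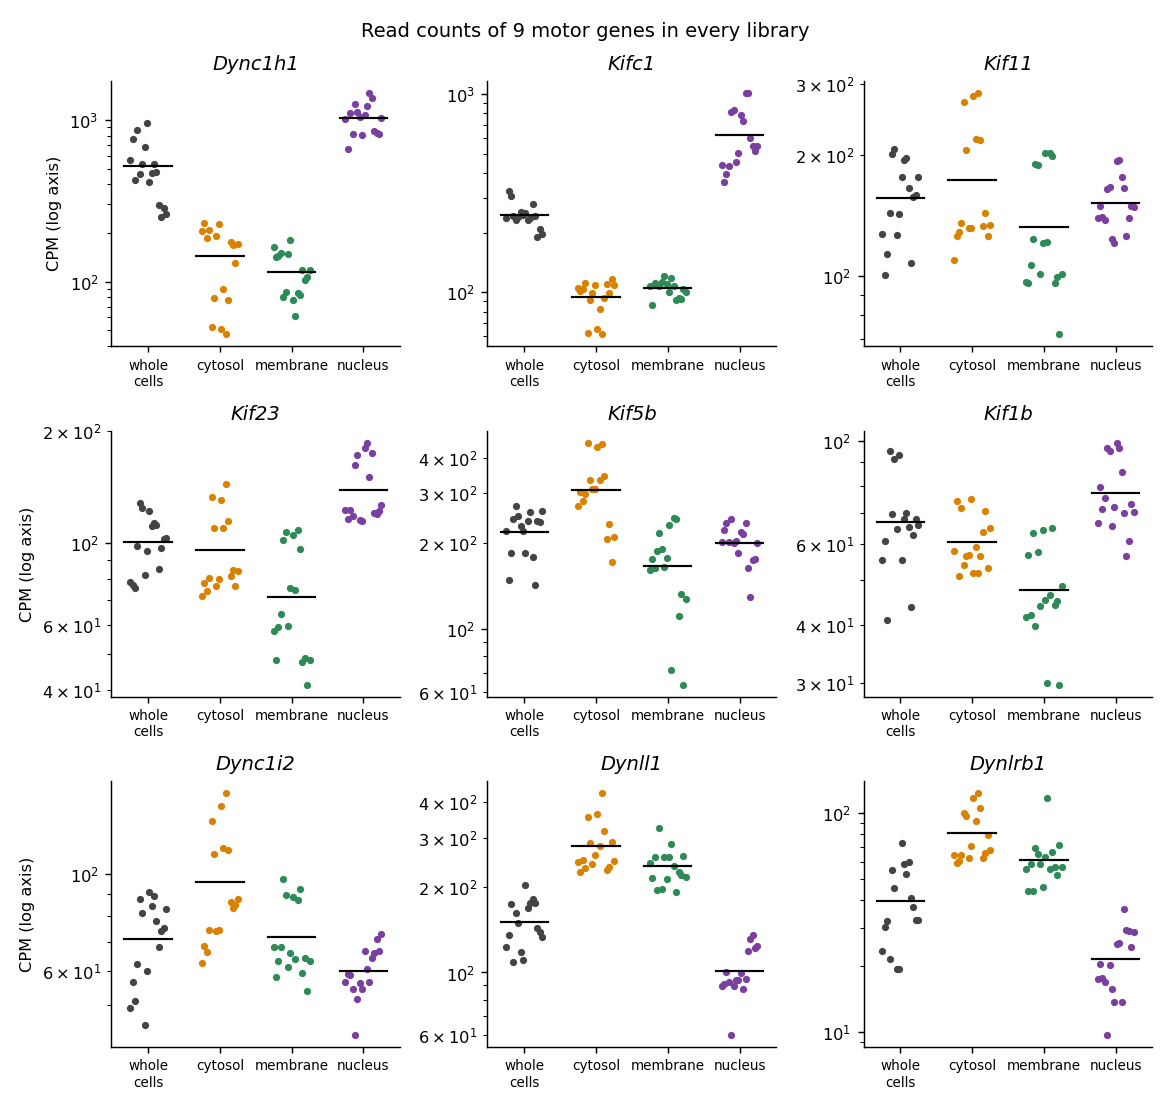
Read counts in CPM (log axis) of 9 motor genes in the 4 fractions, where each point is 1 of 16 libraries and each line a mean. Dync1h1 and Kifc1 lie highest in the nucleus without overlap with the cytosol, Kif11 lies at like values in both, and Dynll1 and Dynlrb1 lie lowest in the nucleus.

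The number of members called depended on the pairs of replicates. Fitted within replicates 3 and 4, 25 members were higher in the nucleus and 13 lower, against 11 and 16 within replicates 1 and 2 and 6 and 6 within replicates 5 and 6. Of 49 members measured in all pairs, 15 were called higher with the same sign in each pair (39.1% of all genes) and 7 called lower (21.4%). A ratio over 0.5 in each pair was found for Kifc2, Dync1h1, Kifc5b, Kif23, Dync2h1 and Kifc1, 6 members against 27.4% of all genes. A ratio under -0.5 in each pair was found for Dynll1, Dynll2, Dync2li1 and Dynlrb1, 4 members against 15.7%. Without replicate 4, 7 members were higher and 14 lower. For the fits within pairs and without replicate 4 the shares of all genes called are not given. The median of all genes also moved between pairs, as described above. The counts of members from these fits therefore do not set them apart from all genes. With size factors by relative log expression the median of all genes moved from 0.29 to 0.18, and the share of higher among called members from 73.1% to 59.3%.

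Mitotic kinesins were compared with transport kinesins relative to all genes. The median log2 ratio was 0.58 for the mitotic and 0.37 for the transport kinesins, which is 0.29 and 0.08 above the median of all genes. Within pairs the mitotic median lay 0.38, 0.13 and 0.24 above that of all genes, and the transport median -0.16, 0.48 and -0.08 from it. The difference between the classes was 0.21, and within pairs it was 0.54, -0.34 and 0.33, with an SD of 0.46. It changed sign between pairs, so no direction between the classes can be given. The light chains lay -0.83 from the median of all genes and -0.69, -1.28 and -0.30 within pairs. The classes also differed in gene length, with a median of 30.9 kb for mitotic kinesins, 64.2 kb for transport kinesins and 8.42 kb for light chains, and the part of length in these values was not tested.

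**Figure D2:**
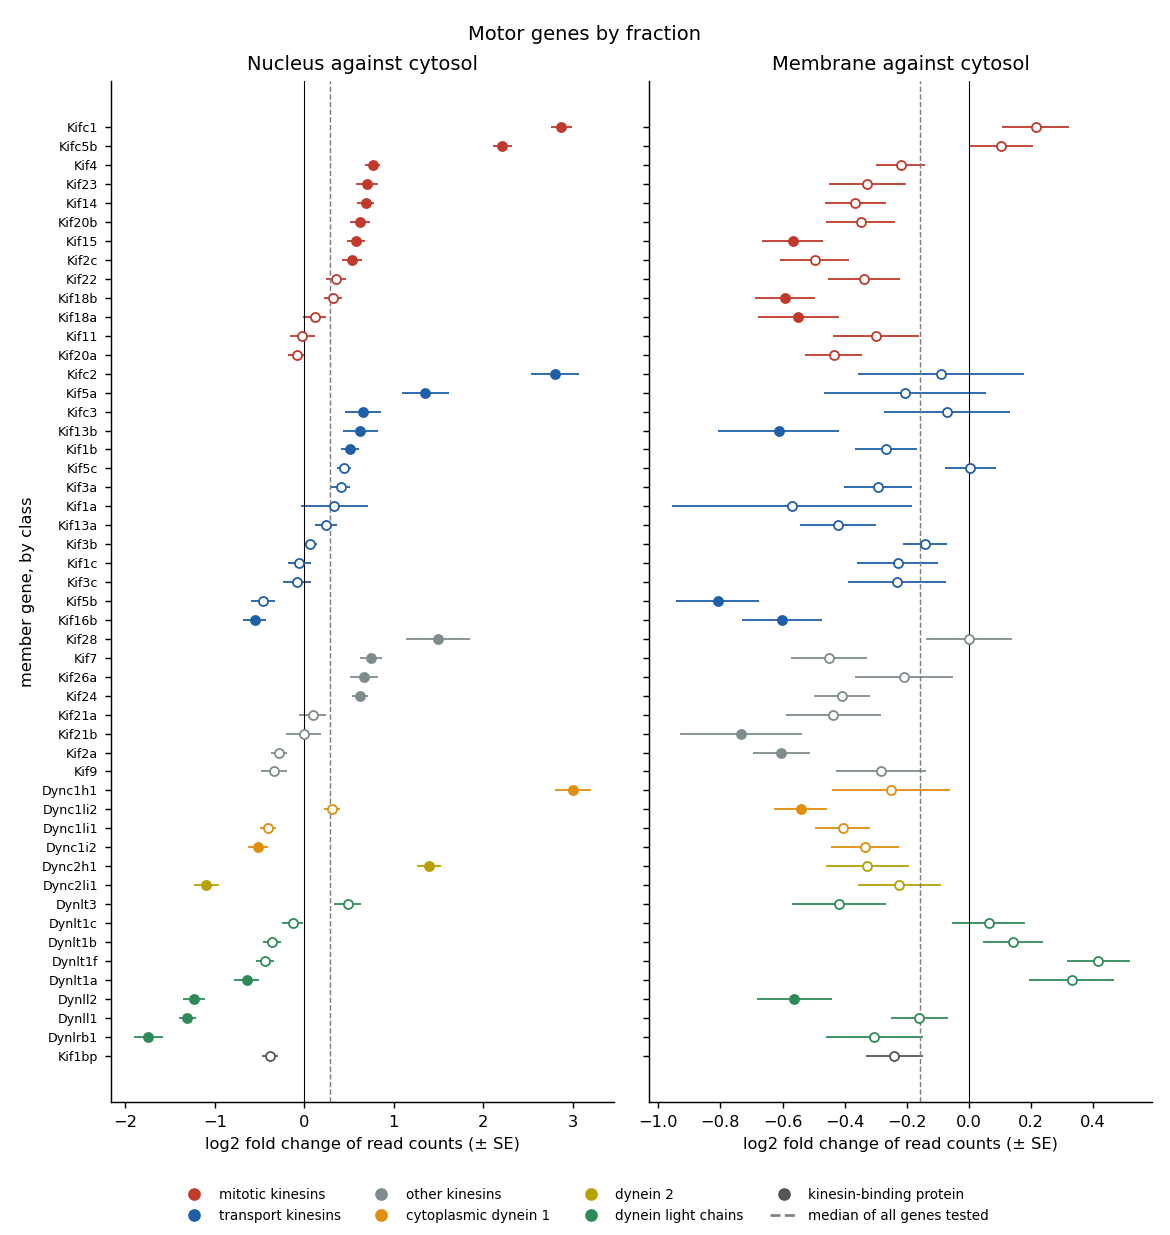
Log2 ratios of nucleus to cytosol and of membrane fraction to cytosol for the 50 members by class, on axes of different scale, with filled points called, open points not called and a dashed grey line at the median of all genes. All light chains but Dynlt3 lie to the left of this line in the nucleus, and no member is called higher in the membrane fraction.

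In the membrane fraction no motor RNA was higher than in the cytosol, and 10 of 50 were lower. Of all genes, 24.1% were higher and 12.9% lower (36.9% in all), with a median log2 ratio of -0.16. The lowest was Kif5b, with 63.5, 170.4 and 245 CPM in the membrane fraction and 172, 306 and 450 CPM in the cytosol. The groups overlapped, yet the membrane fraction was lower in 16 of 16 cultures, and the log2 ratio was -0.81 ± 0.13 (edgeR, adjusted p = 3.21e-07). Within pairs it was -0.62, -0.83 and -0.98, the single member over 0.5 in size in each pair, against 2.15% of all genes. Kif2a, a microtubule depolymerase, had 32.96, 52.96 and 70.1 CPM against 71.6, 79.2 and 121 CPM, and Dync1li2 29.2, 40.1 and 53.1 CPM against 55.2, 56.9 and 76.4 CPM. Neither of them overlapped between fractions, and their log2 ratios were -0.60 and -0.54. Kif21b with -0.73, Kif13b with -0.61, Kif16b with -0.60, Kif18b with -0.59, Kif15 with -0.57, Dynll2 with -0.56 and Kif18a with -0.55 were the other members called. With the culture as a block Kif2c was also called, at -0.53. The members with the highest ratios were Dynlt1f with 0.42 and Dynlt1a with 0.33, short of the limit. Dync1h1 with -0.25 and Kifc1 with 0.21, so different between nucleus and cytosol, were not called here.

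Levels in whole cells were compared between labeling times to see whether the motor genes changed over labeling. All these cultures had received 4sU, so an effect already present at the earlier time would not show. None of the 50 members was called, and 0% of 16858 genes were called, between 60 and 20 min in replicates 3 and 4 and between 120 and 60 min in replicates 5 and 6 (edgeR, 2 libraries per group). The log2 changes of members lay between -0.71 for Kif28 and 0.51 for Kif1a in the first comparison and between -0.29 for Dynlrb1 and 0.62 for Kif21a in the second. At an unadjusted p under 0.05, 0 members and 747 genes passed in the first and 1 member and 123 genes in the second. In replicate 6 the all-gene median share of new RNA, described below, was 0.374 in whole cells at 60 min and 0.175 at 120 min. Over the same times it rose from 0.223 to 0.413 in the nucleus, from 0.181 to 0.367 in the cytosol and from 0.136 to 0.286 in the membrane fraction. Whether these whole-cell libraries were exchanged was not tested, so the lack of calls in the second comparison is uncertain.

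New RNA was measured next, as the share of new in total RNA of a gene, which is the number of T-to-C conversions divided by the number of T positions and by the conversion rate of the library. After 20 min this share was higher in the nucleus than in the cytosol for most kinesins and light chains. With limma on log2(share + 0.01), 27 of 47 members tested were higher in the nucleus and none lower, against 47.6% higher and 0.113% lower of 12377 genes. The median difference was 1.39 for the members and 1.16 for all genes. They included 9 of 13 mitotic kinesins, 6 of 12 transport kinesins, 3 of 7 other kinesins, 2 of 4 dynein 1 subunits and 6 of 8 light chains. Kif9, Kifc2 and Kif1a had too few T positions. The calls rested on 4 replicates, and without replicate 4 only 9 members were called.

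At 20 min Dynll1 had the largest difference of the members called. It had nuclear shares of 0.101, 0.0683, 0.189 and 0.137 in replicates 1 to 4 and cytosolic shares of 0.0144, 0.0158, 0.0183 and 0.0240. The fractions did not overlap, and the log2 difference was 2.18 ± 0.36 (SE, limma, adjusted p = 0.00431). Kif20a, with 0.0747, 0.0865, 0.198 and 0.144 in the nucleus and 0.0183, 0.0166, 0.0280 and 0.0204 in the cytosol, differed by 2.06. Kif11 had 0.0446, 0.0678, 0.125 and 0.119 in the nucleus and 0.0218, 0.0208, 0.0243 and 0.0340 in the cytosol, a difference of 1.41. Both were higher in the nucleus in 4 of 4 cultures without overlap. Kif21b differed by 2.15, Kif5c by 1.92, Kif5b and Dynll2 by 1.87, Kif2c by 1.82 and Kif13a by 1.71. Kif23 differed by 1.16 and Kif4, also called, by slightly less. Kif21a had 1.69 but lost its call with the block (limma, adjusted p = 0.0622). Kif1c with 1.08, Kif3a with 0.32, Kif22 with 0.43 and Dync1i2 with 0.80 did not pass.

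Dync1h1 and Kifc1 lacked this early lead of the nucleus. Dync1h1 had 0.0101, 0.0126, 0.0195 and 0.0244 in the nucleus and 0.0121, 0.00673, 0.0303 and 0.05004 in the cytosol, a difference of -0.24. Kifc1 had 0.0130, 0.00980, 0.0222 and 0.0290 in the nucleus and 0.0167, 0.00890, 0.0126 and 0.0406 in the cytosol, a difference that rounded to 0. The fractions overlapped in both genes and neither passed the test, nor did Kifc5b with 0.22. The nuclear shares of Dync1h1 and Kifc1 were below 0.0754, the median of all genes in the nucleus. They lay nearer to 0.0158, the median of all genes in the cytosol at 15 min. No background was subtracted and no unlabeled culture was used, so a difference between such low shares says little. The other subunits of dynein 1 stood apart from the heavy chain, with 1.40 for Dync1li1 and 1.69 for Dync1li2, both called.

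At 60 min fewer members still had a higher share in the nucleus. There were 13 of 48 called higher and none lower, against 25.4% and 1.18% of 12507 genes, with a median of 0.69 over all genes, so that the members were near the background. Kif15, a second motor that pushes spindle poles apart, had 0.302, 0.237, 0.387 and 0.307 in the nucleus of replicates 3 to 6 and 0.0732, 0.0604, 0.156 and 0.130 in the cytosol, a difference of 1.54. Kif3a, a subunit of the kinesin that builds cilia, had 0.122, 0.102, 0.164 and 0.188 against 0.00723, 0.0278, 0.0789 and 0.0599, a difference of 1.74. Neither gene overlapped between fractions. Kif9 had no conversion in the cytosol in any of the 4 libraries and 0.0328 to 0.264 in the nucleus, so its fitted difference of 3.45 depends on the pseudocount. Kif21b with 1.66, Dynlt1c with 1.51, Dynlt1f with 1.41, Kif16b with 1.37, Kif24 with 1.22 and Kif22 and Dynll1 with 1.12 were also called, as were Dync2h1, Dynlt1a and Dynlt1b with values between these last. With the block, Kif22, Dynlt1a and Dynlt1b lost their calls, with adjusted p of 0.0512, 0.0584 and 0.0568 (limma), and Dync1li2 and Kif7 gained one. These calls rested on single cultures: without replicate 3 or without replicate 4 only 1 member was called.

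Kif11 and Kif5b illustrate how the fractions drew level. At 60 min Kif11 had 0.313, 0.211, 0.238 and 0.234 in the nucleus and 0.141, 0.143, 0.284 and 0.247 in the cytosol, with a difference of 0.81 within replicates 3 and 4 and -0.16 within replicates 5 and 6. Kif5b had 0.240, 0.113, 0.160 and 0.181 against 0.0937, 0.0807, 0.175 and 0.174, with 0.86 and -0.03 within the same pairs. The nucleus led in replicates 3 and 4, not in 5 and 6, and the pairs may differ in dose, since the conversion rates at 60 min were 5.83% to 8.29% in the former and 2.38% to 3.99% in the latter. At 120 min Kif11 had 0.475 and 0.425 in the nucleus of replicates 5 and 6 and 0.467 and 0.499 in the cytosol, and Kif5b 0.283 and 0.272 against 0.294 and 0.334.

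In Dync1h1 and Kifc1 the cytosol had the higher share at later times, though not past the test. At 60 min Dync1h1 had 0.0901, 0.0700, 0.0966 and 0.0867 in the nucleus and 0.0921, 0.0880, 0.204 and 0.187 in the cytosol. The cytosol was higher in 4 of 4 cultures, with a difference of -0.59 that did not pass (limma, adjusted p = 0.246), and -0.16 and -1.02 within pairs. Kifc1 had 0.0909, 0.0798, 0.125 and 0.111 in the nucleus and 0.125, 0.123, 0.225 and 0.241 in the cytosol. It too was higher in the cytosol in 4 of 4 cultures, with a difference of -0.71 (limma, adjusted p = 0.1498), with -0.50 and -0.93 within pairs. Kifc5b had -0.63, again in 4 of 4 cultures. The light chain Dynlt3 also had -0.63, with 0.112, 0.0722, 0.166 and 0.109 in the nucleus and 0.0844, 0.159, 0.270 and 0.263 in the cytosol, higher in the cytosol in 3 of 4 cultures and not called. At 120 min Dync1h1 reached 0.196 and 0.161 in the nucleus of replicates 5 and 6 and 0.396 and 0.402 in the cytosol. The corresponding values of Kifc1 were 0.429 and 0.384 against 0.577 and 0.450.

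**Figure D3:**
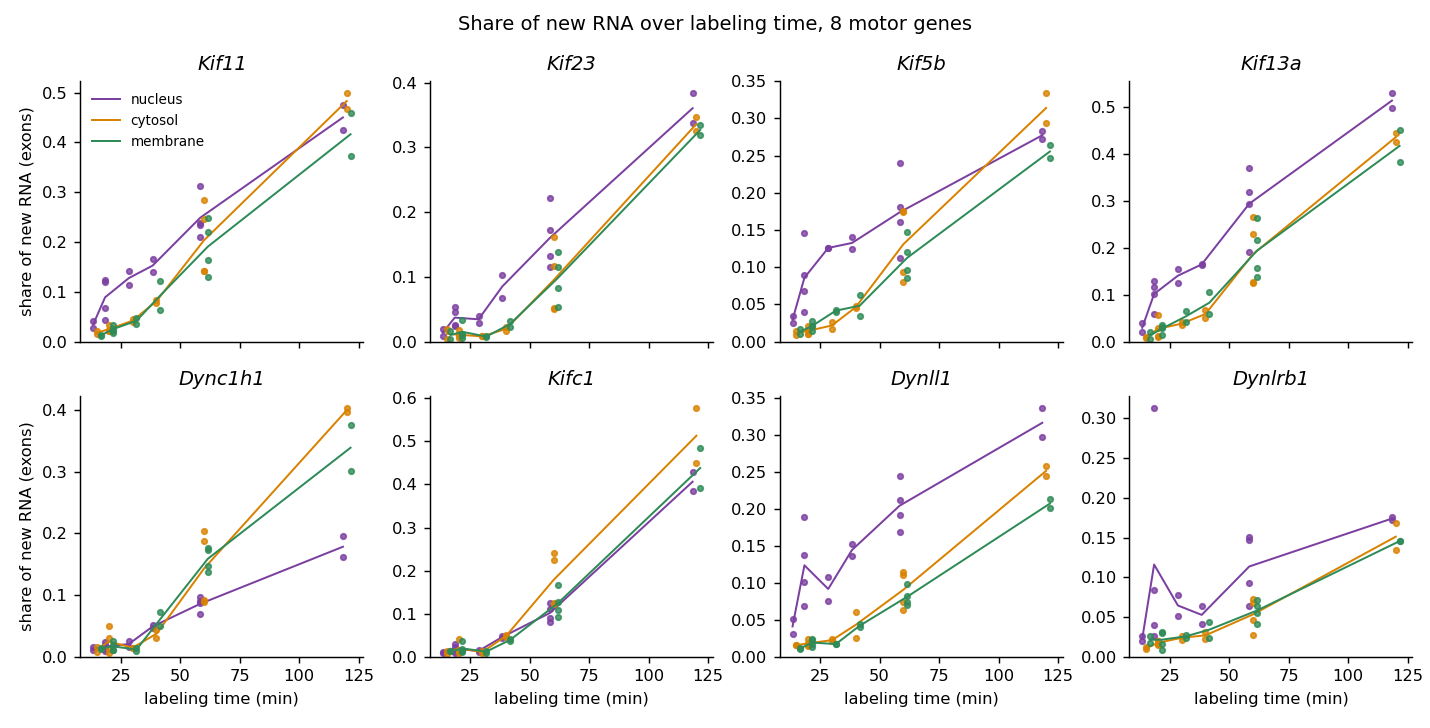
Share of new in total RNA against labeling time in min for 8 motor genes in nucleus, cytosol and membrane fraction, with a point per library and a line through the means. The nucleus leads early in Kif11, Kif5b, Kif13a and Dynll1, while the cytosol lies above the nucleus at 60 and 120 min in Dync1h1 and Kifc1.

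At 60 and 120 min the light chains had the lowest median shares of the kinesin, dynein 1 and light chain classes. This was not so early on, as their nuclear median at 20 min was 0.0740, against 0.0588 for mitotic and 0.0725 for transport kinesins. At 60 min the median share of the light chains in the cytosol was 0.0622, against 0.182 for mitotic kinesins, 0.184 for transport kinesins and 0.143 for all 11575 genes with at least 400 T positions in each library. Dynll1 had 0.0626, 0.0743, 0.111 and 0.115 and Dynlrb1 0.0464, 0.0273, 0.0722 and 0.0673 in the cytosol at that time. Both lay below the median of all genes over the 4 libraries, unlike Dynlt3, with a mean of 0.194. Dynll2 had a mean of 0.132, close to that median. The Dynlt1 copies a, b, c and f, which share reads, had means of 0.0613, 0.0527, 0.0590 and 0.0479. The median of the class thus leans on copies that are not independent. At 120 min the light chains had a median of 0.172 in the cytosol and all genes one of 0.370.

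In the nucleus the transport kinesins had the higher median share in most libraries, and in the cytosol the classes lay close together up to 60 min. The median of mitotic minus that of transport kinesins in the nucleus was -0.0399 and -0.0519 at 30 min (replicates 1 and 2) and -0.0290 and -0.0295 at 40 min (replicates 3 and 4). At 60 min the median of 13 mitotic kinesins minus that of 12 transport kinesins was -0.0309 ± 0.0230 in the nucleus (SD, n = 4 libraries), with medians of 0.250 and 0.281. The same difference was -0.00186 ± 0.0116 for the cytosol, -0.0172 ± 0.0453 for whole cells and -0.00440 ± 0.0262 for the membrane fraction. The last 3 were within the spread between libraries, and the nuclear difference moved to 0.0114 when only exons within 5 kb of the 3′ end were used. In whole cells the differences were -0.0113, -0.0112, -0.0781 and 0.0316 in replicates 3 to 6. The last is uncertain, since the all-gene median share of replicate 6 at 60 min was 0.374 in whole cells, above the 0.223 of its nucleus. Without replicate 6 the whole-cell difference was -0.0335 ± 0.0386. Over all labeling times the mitotic median was the higher one in 3 of 16 nuclear, 5 of 16 cytosolic, 5 of 16 membrane and 2 of 16 whole-cell libraries. At 120 min the cytosolic medians were 0.521 for mitotic and 0.463 for transport kinesins, with differences of 0.0882 and 0.0286 in replicates 5 and 6. In the nucleus the differences were then 0.0475 and -0.00631, so the direction was not the same in both replicates.

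Between membrane fraction and cytosol no difference in share was found at 60 min. None of 47 members was called in either direction, against 0.016% of genes higher and 3.14% lower, or 3.15% in all (limma). The differences ran from -0.9997 for Dync2li1 to 1.08 for Kif21b, with -0.15 for Kif5b and 0.23 for Dync1h1.

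Introns show newly made precursor RNA, since they are removed early. In the nucleus at 20 min the introns had a higher share than the exons in 45 of 47 members tested, against 89.7% of 11282 genes higher and 0.239% lower, or 89.9% in all (limma). The median log2 difference over all genes was 1.98. Dync1h1 had the largest difference of the members, with intron shares of 0.467, 0.578, 0.644 and 0.526 beside exon shares of 0.0101, 0.0126, 0.0195 and 0.0244. The difference was 4.42 (limma, adjusted p = 6.96e-05). Kif13b with 3.90, Dync2li1 with 3.77 and Kifc1 with 3.75 followed. The mean exon shares of Dync1h1, Kif13b, Dync2li1 and Kifc1 were 0.0167, 0.0297, 0.0121 and 0.0185. At such low shares background, which was not subtracted, may weigh on these differences. Kif22 had 3.28, Kif11 2.89, Kif5b 2.61 and Dynll1 2.75. Kif3a with 0.96 and Kif21b with 0.26 did not pass. Introns held only 2.85% of the nuclear T positions of Dync1h1, the lowest value of the members. This percentage was 63.2% in Kif24, 15.8% in Kifc1 and 17.0% in Kif11, with a median of 26.3% for the members and 26.4% for all genes. In the cytosol it was 16.7% for Kifc1, close to its nuclear value, but 3.95% for Kif11 and 2.37% for Kif5b. Kifc1 was not alone in this, as Dync1h1 had 2.60% in the cytosol. Nucleus and cytosol had 29.9% and 25.7% in Kifc5b, 5.92% and 4.62% in Dynlt3 and 32.9% and 26.1% in Kif5c. In most other members the cytosolic value was well below the nuclear one.

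Within long motor genes the share of new RNA also depended on the position of the exon. As background, poly(A) selection picks RNA that was copied to the end of its gene, so that the last exons of such RNA were made last. The study reported lower nuclear shares farther from the 3′ end for exons grouped across genes, above all at short labeling times. The pattern is thus not particular to motor genes, and no count over all genes was made here. In the nucleus at 20 min, exons less than 5 kb from the 3′ end had a higher share than exons over 20 kb away in 24 of 25 members with both. The medians over these members were 0.107 and 0.0197. Kif11 had 0.136 ± 0.0511 under 5 kb, 0.0611 ± 0.0431 between 5 and 20 kb and 0.0184 ± 0.0126 over 20 kb from the end (SD, n = 4). Kif5b had 0.122 ± 0.0633, 0.0464 ± 0.0387 and 0.0185 ± 0.0103. Both fell with distance, although the spread between replicates was wide. Dync1h1 had 0.0204 ± 0.00772, 0.0139 ± 0.00663 and 0.0146 ± 0.00697, all near the values of the far exons of Kif11 and Kif5b. No background was subtracted, so whether its share falls with distance cannot be told at such low values. In the nucleus the near exons were higher in 22 of 24 members at 60 min and in 24 of 28 at 120 min. In the cytosol they were higher in 21 of 26 at 20 min, in 20 of 23 at 60 min, with medians of 0.200 and 0.0830, and in 23 of 28 at 120 min. Members are not replicates of a condition, and no test was made over them.

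**Figure D4:**
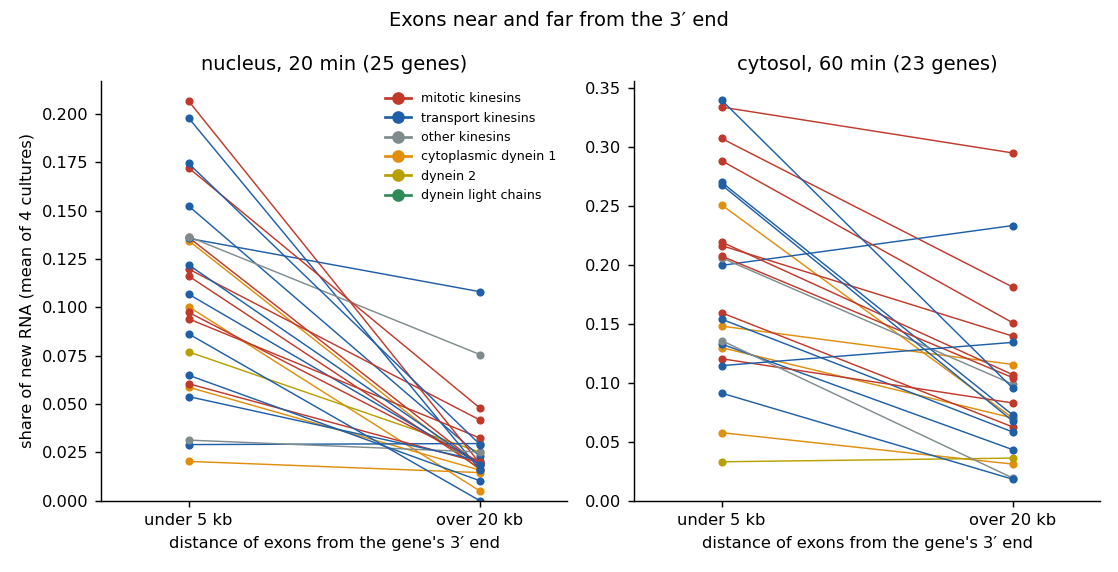
Mean share of new RNA of exons under 5 kb against exons over 20 kb from the 3′ end of the same gene, in the nucleus after 20 min (25 members) and the cytosol after 60 min (23 members). Near exons are higher in 24 and 20 of these members.

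Genes whose products work with the motors were read from lists of partners. Of all genes, 42.5% were higher in the nucleus and 21.2% lower, and neither list of partners exceeded this. Of 30 motor partners and adaptors, 8 were higher in the nucleus than in the cytosol, led by the dynein adaptors Hook3 with a log2 ratio of 1.42 and Nin with 0.96, and 6 were lower, among them the dynactin subunits Dctn5 with -0.86, Actr1a with -0.84 and Dctn6 with -0.76. Of 20 spindle and cytokinesis partners, 4 were higher, namely Anln with 2.99, Incenp with 1.71, Cenpe with 1.35 and Bub1 with 1.15. The 3 that were lower were Spc25 with -1.11, Birc5 with -0.78 and Aurka with -0.51. Cenpe is itself a kinesin, outside the symbols used here. After 20 min the share of new RNA was higher in the nucleus for 15 of 30 motor partners and 12 of 20 spindle partners, and after 60 min for 15 and 5. Of all genes, 47.6% were higher after 20 min and 25.4% after 60 min.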

How the data were processed

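Poly(A)-selected, stranded paired-end libraries were, per the labels, aligned by the authors with STAR 2.7.6 to GRCm38. The deposited read counts per gene were made with HTSeq 0.11.1 and not normalized. Lines naming no gene, 30.4% to 48.8% of a library, were left out. The authors also deposited counts of T positions and T-to-C conversions per exon, gene and introns, a conversion rate per library as a fraction, and the ratio of conversions to T positions divided by this rate. Shares were recomputed from the counts and the rate. No background was subtracted. Shares are divided by an estimated conversion rate and were not capped, so those of introns can pass 1. PCR duplicates were not marked by molecular identifiers, and the spread between libraries is given as error.

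Counts were tested with edgeR 4.0.16 (filterByExpr, TMM, quasi-likelihood) in R 4.3.3 and shares with limma 3.58.1 (trend, pseudocount 0.01, at least 400 T positions in each library used), with Benjamini-Hochberg adjustment over all genes. Called were adjusted p below 0.05 with log2 values beyond 0.5 in size. DESeq2 1.42.0 was an alternative. Scripts were tested on simulated data. Summaries and figures were made in Python 3.11.15 (pandas 2.3.3, numpy 2.4.6, matplotlib 3.10.9).

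Fractions of 1 replicate and time came from 1 culture by the protocol. Their deviations from the fraction means correlated across genes, with r from -0.007 to 0.592 between nucleus and cytosol, over 0.1 in 13 of 16 cultures, and from 0.516 to 0.853 between membrane fraction and cytosol. Replicates were separately passaged cultures.

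Named were, per comparison and class, the called members with the 2 largest values in each direction, a fixed set of well-known motors, and the 2 members nearest to the T minimum on each side. Other members were named as each class was listed. The members, classes, lists and motifs were chosen with earlier results of these data known.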

Additional observations from a re-analysis of the deposited data

Results flagged for a closer look

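Shares of 19 named motor genes were examined in 76 groups of 4 libraries for a library far from the others. Chance alone would single out about 1 in 20 such groups. In 4 groups 1 library stood apart by its gap to the nearest other value relative to the range of the group, and each time it was replicate 4. In the nucleus at 60 min Dync1i2 had 0.0676 in replicate 4, with the others at 0.113 to 0.118. In the cytosol at 20 min Kif1c had 0.0622, with the others at 0.00931 to 0.0168, and Kif2c had 0.0283, with the others at 0.0144 to 0.0157. In the same cytosolic libraries Kif21a had a share of 0, with the others at 0.02997 to 0.0348. The 4 groups are about as many as chance would single out, and 3 of them share 1 library, the cytosol of replicate 4 at 20 min.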

How the results depend on the processing

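Within single pairs of replicates Kifc3, Kif13b and Kif26a, called higher in the nucleus, had negative values in at least 1 pair. Under the other alternatives no value of a named member that was called changed sign. Of 1656 values for named genes 1520 kept their side of the limits, 91 lost a call and 45 gained one. Of the named calls, 11 of 17 held under each alternative between nucleus and cytosol, 8 of 8 between membrane fraction and cytosol, 6 of 18 in shares at 20 min, 1 of 10 at 60 min (Kif9) and 25 of 25 for introns. Kif9, with a mean of 596 T positions in whole cells, has too few for the alternative with a T minimum of 2000. Its call thus held only where it could be tested, and its value depends on the pseudocount. The 19 members higher in the nucleus became 12 without the low-count filter, 9 with all 18 libraries, 7 at a limit of 1, and 7 to 19 without 1 replicate. The 7 lower became 11 with relative log expression, 12 without the filter, 11 with DESeq2, 14 with all 18 libraries, 4 at a limit of 1 and 5 to 14 without 1 replicate. The 10 lower in the membrane fraction became 0 at a limit of 1 and 10 to 19 without 1 replicate. The 27 higher shares at 20 min became 9 to 27 without 1 replicate (13, 11 and 9 without replicates 2, 3 and 4), and the 13 at 60 min became 5 with a T minimum of 100 and 1 to 11 without 1 replicate.

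With the culture as a replicate block, which pairs the fractions, the counts were 21 higher and 6 lower in the nucleus, 11 lower in the membrane fraction, 28 shares at 20 min and 12 at 60 min, and without the pairing 44 for introns. Kif1a was then called at 0.54 between nucleus and cytosol, Kif26a and Kif2a gained calls in shares at 20 min (limma, adjusted p = 0.0340 and 0.0468), and Kifc2 lost its intron call without the pairing (limma, adjusted p = 0.104). The report gives the other changed calls. The mitotic minus transport difference of shares in the nucleus became -0.00284 with dynein 1 among the transport motors, 0.0114 with near exons, -0.00408 with a T minimum of 2000 and -0.0413 to -0.0228 without 1 replicate. In the cytosol it became 0.0229 with dynein 1, 0.0237 at 2000 and -0.00760 to 0.000621 without 1 replicate. It was -0.0125 to 0.00715 in the membrane fraction, -0.0335 to 0.00303 in whole cells, and 0.08 to 0.28 for the log2 ratios without 1 replicate. The causes were not tested.

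Depth limits the rare members Kif9, Kif1a and Kifc2, whose shares could not be tested at 20 min. Without Kif28, Kifc5b and the Dynlt1 copies, an alternative chosen after seeing the data, 17 members were higher and 6 lower in the nucleus, and 24 and 9 had higher shares at 20 and 60 min.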
